A study of Rattus norvegicus with 6 samples.

Results

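The rat pancreas 24 h after a crush injury was set against the sham-operated pancreas, with 2 libraries in each group, so that 4 of the series' 6 libraries were compared. All 11477 genes with a mean level of at least 1 TPM over the 6 libraries entered, out of 34001 genes in the table. TPM gives each gene's share of a library's transcripts after correction for gene length. A gene was counted as standing higher in both injured libraries when the lower of them exceeded the higher control by at least 1 log2 unit of TPM + 0.5, both as deposited and after median-of-ratios scaling, in which each library is divided by the median ratio of its genes to the genes' geometric means. Lower genes were counted by the mirror rule. A gene near 0 in the controls could pass the filter through the other libraries alone, and could then hardly count as lower.

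The animals were Sprague-Dawley rats, an outbred strain. Rats of the Control group had the abdomen opened and the pancreas turned with swabs, and received 1 ml of saline by vein. Rats of the TP group, for traumatic pancreatitis, had the pancreas pressed with an impactor of 3 cm2 under a load of 10 kg and then received the same volume of saline. The remaining 2 libraries, used here only for the filter, the scaling and the estimate of spread, came from crushed rats given hucMSC-Exs, exosomes of mesenchymal stem cells from human umbilical cord, in a dose of 10 μg for each 100 g. All groups were killed 24 h after the operation. The sources used here give neither age and sex nor the piece of the gland taken, and no label says that the libraries of a group came from separate animals, so that p-values measure only the spread between these libraries.

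Most of the pancreas consists of acinar cells, which make the digestive enzymes, store trypsin and its relatives as inactive zymogens, and export them through the ducts. In pancreatitis the zymogens are activated inside the gland, acinar cells die or lose their mature programme, and chemokines draw neutrophils and monocytes from the blood. Surviving acinar cells make secreted stress proteins of the Reg family, while stellate cells and fibroblasts lay down matrix.

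The 4 libraries were far from alike in composition. Acinar digestive enzymes made up 75.0% and 71.9% of TPM in control replicates 1 and 2, 67.5% in TP replicate 1 and 18.2% in TP replicate 2. The number of genes at 1 TPM or more was 5533, 7863, 6498 and 13629 in the same order, and the size factors were 0.364, 0.647, 0.479 and 5.44. TP replicate 2 therefore stood apart from the other 3, and the median gene lay 3.00 log2 units above the control mean in it as deposited, against 0.00 in TP replicate 1. After scaling these medians were 0.06 and 0.04. In whole tissue, fewer cells of a type and less RNA per cell cannot be told apart.

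Defining markers of several other cell types moved with TP replicate 2, and TP replicate 1 lay within or near the control range for most of them. The 6 acinar markers summed to 486766 and 461514 TPM in the controls, 437545 in TP replicate 1 and 116082 in TP replicate 2. The 4 macrophage markers summed to 12.8 and 127 TPM in the controls, 40.8 in TP replicate 1 and 4275 in TP replicate 2. The 4 fibroblast markers summed to 29.5, 69.7, 76.2 and 4296 TPM in the same order. The 4 adipocyte markers gave 15.3, 32.0, 16.6 and 3539 TPM, and 4 neutrophil markers 0.50, 2.98, 2.96 and 469 TPM, with Mpo at 0 in TP replicate 1. The 4 B and T cell markers were all at 0 in TP replicate 1, and 3 of them were at 0 in control replicate 1. They summed to 0.09 and 23.4 TPM in the controls and 13.7 in TP replicate 2, within the control range. The 5 islet markers summed to 2082 and 324 TPM in the controls, 975 in TP replicate 1 and 298 in TP replicate 2. The part of these differences in the results that follow was not tested.

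**Figure D1:**
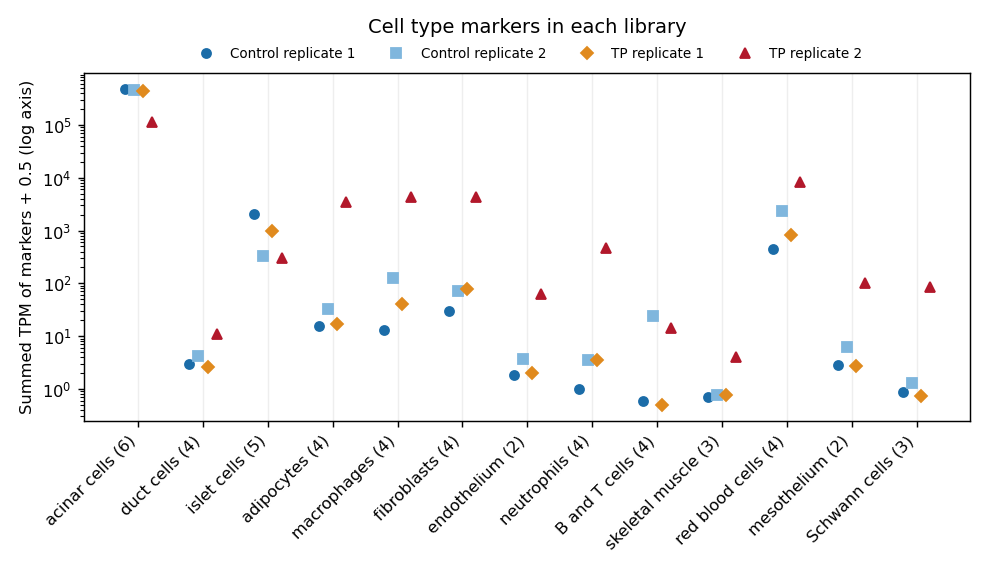
Summed TPM of the defining markers of each cell type on a log axis, with the number of markers in parentheses and 1 point for each of the 4 libraries. TP replicate 2 lies above the other 3 libraries for macrophages (4275 TPM), fibroblasts (4296 TPM), adipocytes (3539 TPM) and neutrophils (469 TPM) and below them for acinar cells (116082 TPM).

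By the rule, 62 genes stood higher in both TP libraries, 0.54% of the 11477 tested, and 12 stood lower, 0.105%. Of the 62, 30 carried a gene symbol, and these included the iron-binding protein Lcn2, the monocyte chemokines Ccl2 and Ccl7, the metalloproteinase inhibitor Timp1 and the haem-degrading enzyme Hmox1. The 12 lower genes included the trypsinogen Prss3, the carboxypeptidase Cpa4 and the feedback inhibitor of the EGF receptor Errfi1. Without a minimum distance, 1083 genes (9.44%) were higher and 79 (0.688%) lower in both TP libraries on both scales. The imbalance between the directions depended on the scale: as deposited 2649 genes (23.1%) were higher and 125 (1.09%) lower, whereas after scaling 2097 (18.3%) were higher and 1398 (12.2%) lower. With the 1-unit distance on 1 scale alone, 113 genes (0.985%) were higher and 17 (0.148%) lower as deposited, and 101 (0.88%) were higher and 46 (0.401%) lower after scaling. An exact permutation test of 2 libraries against 2 cannot give a two-sided p below 0.33, so none is given for single genes.

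**Figure D2:**
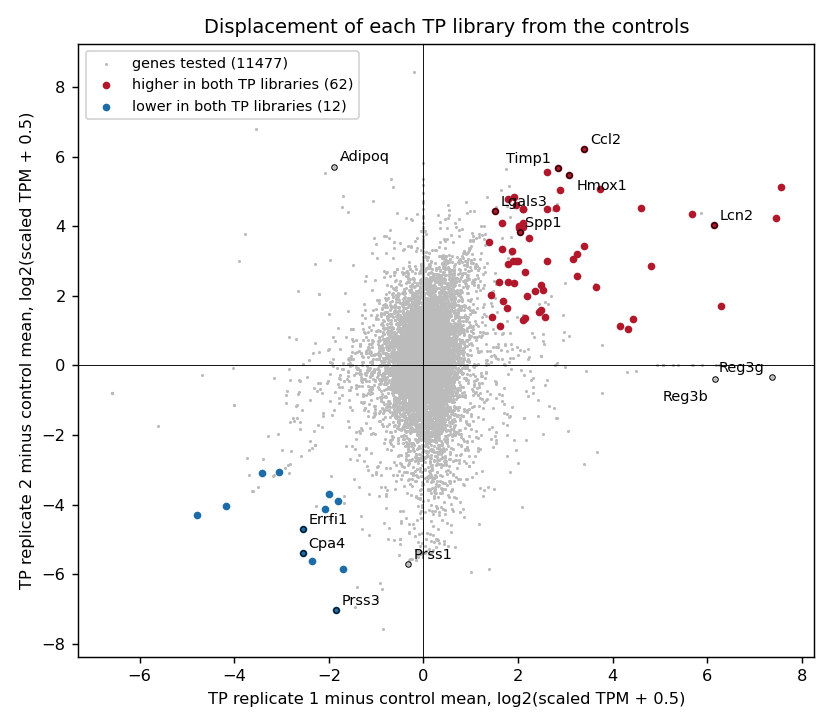
Each of the 11477 genes by its distance from the control mean in TP replicate 1 (x axis) and TP replicate 2 (y axis), both in log2(scaled TPM + 0.5), with the 62 genes higher in both in red and the 12 lower in both in blue. The grey cloud is drawn out along the y axis, and genes such as Prss1, Reg3b and Reg3g lie far from the controls in 1 TP library only. Adipoq lies above the controls in TP replicate 2 and below them in TP replicate 1.

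A moderated test across all genes (limma, with Benjamini-Hochberg adjustment) called 6 genes higher as deposited (0.0523% of those tested) and none lower, and after scaling it called none in either direction. Unadjusted p-values under 0.05 numbered 466 as deposited and 668 after scaling. The 6 were Lcn2, Timp1, Reg3b and 3 short features without a description (AABR07018115.1, AABR07072539.7 and MSTRG.10538), and 4 of them were among the 62. Reg3b and AABR07072539.7 were not. The log2 fold change of AABR07072539.7 was 11.5 without control replicate 1 and 1.60 without control replicate 2. Its control libraries were thus far apart. The median standard error of a log2 fold change was 1.43 as deposited and 0.36 after scaling. The smallest adjusted p in limma after scaling was 0.192. As deposited the test took the spread from the trend over genes, and after scaling partly from each gene. The adjusted p-values on the deposited and scaled values are therefore not directly comparable. Leaving out control replicate 1 or 2 gave Lcn2, Timp1 and Reg3b adjusted p-values of 0.894 and 0.722 in limma, so that those calls were lost.

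Lcn2 encodes lipocalin 2, which neutrophils and injured epithelia secrete and which withholds iron from bacteria. It was at 2.88 and 2.78 TPM in the controls, 216 in TP replicate 1 and 560.0 in TP replicate 2. Both TP libraries were therefore far above both controls, and the nearest pair of libraries was separated by 3.62 log2 units on the scale with the smaller gap. Its log2 fold change was 6.71 ± 1.27 (SE, n = 2 and 2) as deposited, with an adjusted p of 0.000528 in limma, and 5.09 ± 0.78 after scaling, with an adjusted p of 0.710 in limma. Lcn2 rose by the first of these tests only, although the libraries were apart on both scales.

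Among the chemokines, Ccl2, the main ligand that recruits monocytes through the receptor CCR2, was at 0 and 0.17 TPM in the controls, 2.89 in TP replicate 1 and 248 in TP replicate 2. Ccl7, a related monocyte attractant, was at 0.06 and 0.48 TPM in controls against 2.98 and 162. Ccl12, another CCR2 ligand, was listed at 0 in both controls and at 0.79 and 40.0 TPM after the crush. In all 3 genes TP replicate 1 stood just above a control level at or near 0, and TP replicate 2 was higher on both scales. After scaling the TP libraries were at 6.04 and 45.6 for Ccl2, 6.22 and 29.7 for Ccl7, and 1.65 and 7.35 for Ccl12.

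Ccl11, which attracts eosinophils, was at 0.23 and 0.34 TPM in the controls and at 2.58 and 14.3 in the TP libraries. The interferon-inducible T cell attractant Cxcl10 was at 0.16 and 0.11 TPM against 0.92 and 19.9. Spp1, osteopontin, a matrix-bound cytokine that macrophages and injured duct epithelium make, had higher basal levels, at 3.68 and 2.87 TPM in the controls and 13.95 and 558 in the TP libraries. Of 24 chemokines and inflammatory cytokines tested, 10 (41.7%) were higher in both TP libraries without overlap on both scales, against 9.44% of all genes tested. None was lower, but members near 0 in the controls, such as Cxcl10, could hardly count as lower. Ccl2, Ccl7, Spp1 and Cxcl10 kept the 1-unit distance, and Ccl6, Cxcl6, Cxcl3, Csf1, Ccl9 and Cxcl1 did not. The smallest step was that of the neutrophil attractant Cxcl1, at 0 and 0.19 TPM in the controls, 0.20 in TP replicate 1 and 8.68 in TP replicate 2. The list's median distance from the control mean was 0.25 log2 units in TP replicate 1 and 2.19 in TP replicate 2 after scaling, so the size of the difference came mostly from the second library.

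The promoters of some of the 62 higher genes are shown, with that of Reg3b, which did not pass the rule. The inflammatory factors NF-kappaB, AP-1 and STAT act on such stretches. The printed genes were chosen, and each holds a match. Most of the 19 symbols among the 62 with a sequence window had no match to any of the motifs. Each line gives the 250 bases before the RefSeq transcription start (GRCr8), 5′ to 3′ on the gene's strand, with matches to the searched motifs in capitals. The motifs, searched on both strands, were the STAT motif TTCNNNGAA, the AP-1 motif TGANTCA and the NF-kappaB consensus by its name alone.
Lcn2: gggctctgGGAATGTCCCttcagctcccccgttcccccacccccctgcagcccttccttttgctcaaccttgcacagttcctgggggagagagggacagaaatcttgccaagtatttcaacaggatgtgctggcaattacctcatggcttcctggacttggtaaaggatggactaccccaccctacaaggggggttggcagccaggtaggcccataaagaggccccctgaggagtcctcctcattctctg
Ccl7: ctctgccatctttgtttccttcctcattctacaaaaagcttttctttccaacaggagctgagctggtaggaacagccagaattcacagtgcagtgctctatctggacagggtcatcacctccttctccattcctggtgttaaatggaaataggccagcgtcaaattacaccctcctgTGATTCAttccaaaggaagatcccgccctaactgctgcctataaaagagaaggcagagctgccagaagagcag
Cxcl10: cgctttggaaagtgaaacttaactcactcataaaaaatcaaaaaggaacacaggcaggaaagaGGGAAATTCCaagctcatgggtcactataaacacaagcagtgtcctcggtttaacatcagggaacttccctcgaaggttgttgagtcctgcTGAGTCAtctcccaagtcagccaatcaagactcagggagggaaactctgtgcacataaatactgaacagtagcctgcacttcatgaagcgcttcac
Ptx3: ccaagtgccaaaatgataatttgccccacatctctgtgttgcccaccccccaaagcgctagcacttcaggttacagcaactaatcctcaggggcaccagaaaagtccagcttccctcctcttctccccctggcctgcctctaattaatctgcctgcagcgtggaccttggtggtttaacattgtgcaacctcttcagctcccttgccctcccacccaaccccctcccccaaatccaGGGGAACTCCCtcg
Tnfrsf12a: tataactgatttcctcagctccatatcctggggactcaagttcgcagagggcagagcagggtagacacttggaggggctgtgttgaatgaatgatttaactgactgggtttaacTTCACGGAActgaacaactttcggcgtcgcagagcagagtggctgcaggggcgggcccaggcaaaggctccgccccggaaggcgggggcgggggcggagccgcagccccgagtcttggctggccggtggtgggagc
Reg3b: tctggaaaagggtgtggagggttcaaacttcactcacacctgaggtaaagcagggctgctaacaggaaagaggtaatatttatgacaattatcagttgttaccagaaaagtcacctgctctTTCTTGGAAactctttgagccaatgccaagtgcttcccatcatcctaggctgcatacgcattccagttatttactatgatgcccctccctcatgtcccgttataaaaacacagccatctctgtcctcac
Lcn2 (chr3:36081781-36082030, minus strand) has an NF-kappaB match whose first base lies at -242 from the start. Ccl7 (chr10:67513845-67514094, plus strand) has an AP-1 match at -73. Cxcl10 (chr14:15988816-15989065, plus strand) has an NF-kappaB match at -187 and an AP-1 match at -96. Ptx3 (chr2:152797313-152797562, plus strand) has a pair of overlapping NF-kappaB matches close to the start. Tnfrsf12a (chr10:13213649-13213898, minus strand) has a STAT match at -136, and Reg3b (chr4:112419526-112419775, plus strand) has one at -129.

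A sequence window of 300 bases, 250 before and 50 after the start, was found for 19 of the 29 different symbols among the 62 higher genes. The NF-kappaB consensus matched in 4 of them (21.1%; Cxcl10, Lcn2, Ptx3 and Tubb6), against 4.18% of all 33469 windows. The AP-1 motif matched in 2 (10.5%; Ccl7 and Cxcl10), against 7.33% of all windows, and the STAT motif in 2 (10.5%; Ccl7 and Tnfrsf12a), against 8.87%. The match in Ccl7 to the STAT motif lies after the start and is not printed. A symbol counted when any of its windows matched, whereas the share of all windows is per window and is not limited to the genes tested. These are letter matches in a fixed window and no measure of binding.

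The 62 also held some genes known from myeloid cells, of which Lgals3 and Clec10a were chosen after their values were seen. Lgals3, galectin 3, a lectin of activated macrophages, was at 2.95 and 5.23 TPM in the controls, 11.6 in TP replicate 1 and 1006 in TP replicate 2. The macrophage lectin Clec10a was at 0.62 and 2.12 TPM against 5.31 and 123. Retnlg, a resistin-like protein of neutrophils, was at 0 and 1.53 TPM against 7.38 and 217. That TP replicate 1 was above both controls by at least 1 log2 unit on each scale follows from the rule for the 62.

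Several of the higher features without an official symbol are described in the deposited annotation as immune receptors or parts of the phagocyte oxidase. LOC103694908, described as like Fc gamma receptor III, was listed at 0 in both controls and at 0.79 and 43.4 TPM after the crush, and LOC108348047, described as Fc gamma receptor III, was at 0.60 and 0.31 against 2.40 and 225 TPM. AABR07021402.1, described as neutrophil cytosolic factor 2, a subunit of the phagocyte NADPH oxidase, was at 0.10 and 0.28 TPM against 1.16 and 31.9. Receptors of this family have near-identical copies in the rat genome, so that reads could have been split between them.

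Across the fixed lists, 8 of 23 monocyte and macrophage genes (34.8%) were higher in both TP libraries without overlap and none was lower, against 9.44% and 0.688% of all genes tested. None kept the 1-unit distance. The haemoglobin scavenger receptor Cd163 was at 0.59 and 1.27 TPM in the controls and 2.45 and 76.5 in the TP libraries. The lysosomal protease Ctsb was at 27.5 and 38.2 TPM against 59.8 and 1785. The scavenger receptor Msr1 was at 0.01 and 0.21 TPM against 0.51 and 45.1. Lyz2 and Cd68, which also mark macrophages, overlapped: Lyz2 was at 5.41 and 103 TPM in the controls, 24.4 in TP replicate 1 and 3707 in TP replicate 2. Control replicate 2 was thus the library that kept Lyz2 out of the count. Of 12 neutrophil genes only S100a8 and Cxcr2 were higher in both (16.7%, against the same 9.44%), with S100a8, a calcium-binding alarmin, at 0.21 and 0.75 TPM against 1.77 and 239. Its partner S100a9 overlapped, at 0.25 and 1.87 TPM in the controls and 1.08 and 197 in the TP libraries. None of 16 lymphocyte genes was higher in both.

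Some genes of haem and oxidant handling stood higher in both TP libraries. Hmox1, haem oxygenase 1, which breaks haem down to biliverdin, iron and carbon monoxide, was at 0.08 and 1.59 TPM in the controls, 5.67 in TP replicate 1 and 346 in TP replicate 2. Scaled by the size factors these values were 0.22, 2.46, 11.8 and 63.7, which put the nearest libraries 2.06 log2 units apart, against 1.56 as deposited. Sod1, the cytosolic superoxide dismutase, was at 16.7 and 27.5 TPM in controls against 52.9 and 459, and fell just short of the 1-unit distance with a gap of 0.88. The quinone reductase Nqo1 was at 0.70 and 1.21 TPM against 1.94 and 19.0. Fth1, the heavy chain of the iron store ferritin, was at 164 and 202 TPM against 253 and 3555.

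In the list of NRF2 targets and antioxidant genes 6 of 23 (26.1%) were higher in both TP libraries, against 9.44% of all genes tested. In the red blood cell and haem list it was 5 of 12 (41.7%), namely Hmox1, Cd163, Blvrb, Slc48a1 and Fth1, with no globin among them. The lists overlap: Hmox1 counts in both of these, and Cd163 also in the macrophage list. The glutamate-cysteine ligase subunits Gclc and Gclm, further NRF2 targets, overlapped with the controls. Gclc was at 1.96 and 2.88 TPM in the controls and 1.54 and 19.2 in the TP libraries. The 4 red cell markers summed to 441 and 2359 TPM in the controls, 836 in TP replicate 1 and 8442 in TP replicate 2, so their sum overlapped between the groups.

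Timp1, the secreted inhibitor of matrix metalloproteinases, was at 0.92 and 2.98 TPM in the controls, 13.3 in TP replicate 1 and 1089 in TP replicate 2. The scaled values were 2.53, 4.61, 27.8 and 200.3. Its log2 fold change was 5.79 ± 1.37 (SE, n = 2 and 2) as deposited, with an adjusted p of 0.0472 in limma. After scaling the adjusted p was 0.710 in limma. Timp1 thereby rose by the test on the deposited scale only, and its libraries stood 1.99 log2 units apart at the nearest. The call was lost with a pseudocount of 1 (adjusted p 0.0762 in limma) and without a variance trend (0.0788), and without TP replicate 2 the log2 fold change was 2.64 with an adjusted p of 0.778. Postn, periostin, a matrix protein of activated fibroblasts, was at 0.90 and 2.13 TPM against 5.74 and 142. The long pentraxin Ptx3, a soluble pattern receptor built into matrix, was at 0 and 0.12 TPM against 0.97 and 68.6.

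Among the genes of fibroblasts and stellate cells, 7 of 22 (31.8%) were higher in both TP libraries without overlap, against 9.44% of all genes tested. The collagen chain Col1a1 was at 6.61 and 15.2 TPM in the controls, 20.4 in TP replicate 1 and 1593 in TP replicate 2, and Col3a1 was at 15.2 and 35.0 against 41.1 and 2233. In TP replicate 1 the collagens therefore stood only slightly above control replicate 2. Fn1, fibronectin, overlapped, at 0.90 and 5.13 TPM in the controls and 4.21 and 699 in the TP libraries. The metalloproteinases Mmp19 and Adamts1 were higher in both TP libraries without overlap, whereas the membrane metalloproteinase Mmp14 overlapped. The proteoglycan Vcan lay just outside the 1-unit rule with a gap of 0.98.

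**Figure D3:**
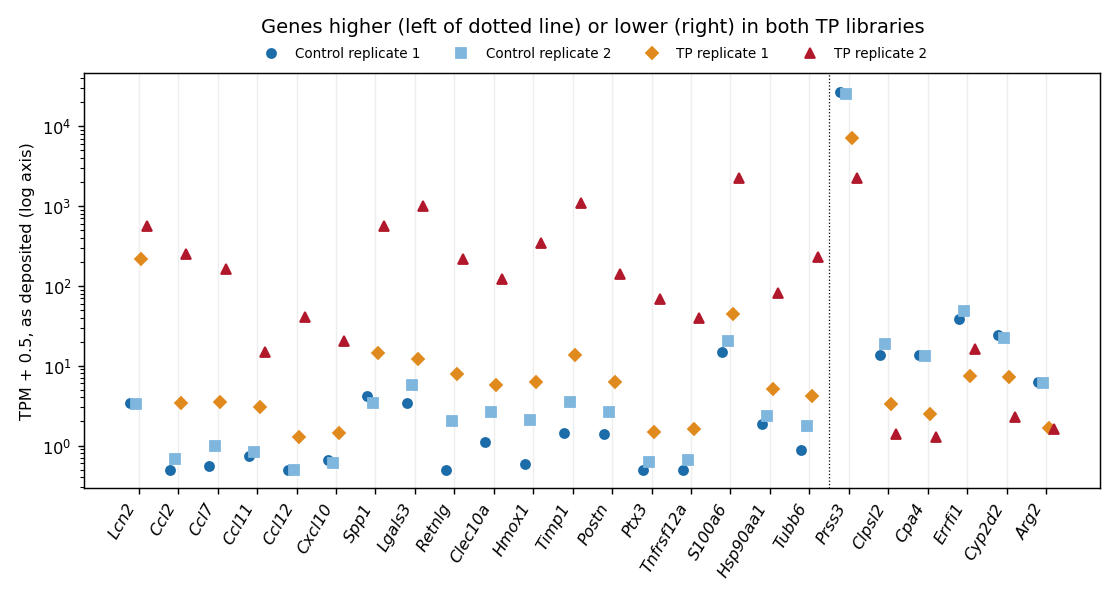
TPM + 0.5 as deposited, on a log axis, in the 4 libraries for 18 of the 62 higher genes and 6 of the 12 lower genes, 1 point per library and no error bars. By the rule, both TP points lie on the same side of both control points in each gene. TP replicate 2 is the higher TP point in each of the 18. Among those 18 TP replicate 1 comes nearest to TP replicate 2 in Lcn2 (216 and 560.0 TPM).

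The calcium-binding annexins and S100 proteins, which serve membrane repair and act as alarm signals outside the cell, had one of the highest shares of any list: 11 of 18 (61.1%) were higher in both TP libraries without overlap, against 9.44% of all genes. S100a6 was at 14.4 and 19.7 TPM in the controls, 43.7 in TP replicate 1 and 2222 in TP replicate 2, and kept the 1-unit distance. S100a4 was at 1.47 and 8.86 TPM against 12.9 and 1051, and the phospholipid-binding annexin Anxa2 at 4.76 and 13.01 against 17.0 and 1160. Median distances of the list after scaling were 0.48 log2 units in TP replicate 1 and 1.36 in TP replicate 2. Both exceeded the medians over all genes, 0.04 and 0.06.

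Heat shock genes encode chaperones of unfolded protein, and 8 of 13 (61.5%) were higher in both TP libraries and none lower, against 9.44% and 0.688% of all genes tested. Hsp90aa1, the inducible cytosolic chaperone HSP90 alpha, was at 1.36 and 1.87 TPM in the controls and 4.62 and 80.4 in the TP libraries, with a gap of 1.11. Hspa8, the constitutive HSP70, was at 31.2 and 48.1 TPM against 59.3 and 761, and its co-chaperone Dnaja1 at 4.52 and 7.10 against 10.4 and 103. The list's medians were 0.47 log2 units in TP replicate 1 and 0.78 in TP replicate 2 after scaling.

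Psme3, the nuclear proteasome activator PA28 gamma, was listed at 0 in both controls and at 1.90 and 19.8 TPM in the TP libraries. On the scaled values the TP libraries were at 3.97 and 3.65. The Psme3 row was also at 0 in both libraries of crushed rats given exosomes, so its values are uncertain. The proteasome subunits themselves were higher in both TP libraries in 8 of 30 cases (26.7%), against 9.44% of all genes tested. Each rose by less than the 1-unit distance, as in Psma4 at 5.6 and 6.79 TPM against 9.96 and 114. Their median distances after scaling were 0.28 and 0.18 log2 units. Of 27 chaperones and secretory genes of the endoplasmic reticulum only Calr, Pdia3 and Srp14 were higher in both (11.1%). This share is near the 9.44% of all genes tested.

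Genes of repair and the cytoskeleton were represented by Tnfrsf12a, the receptor of the cytokine TWEAK, at 0 and 0.16 TPM in controls against 1.13 and 39.3. The beta-tubulins Tubb6 and Tubb3 were higher as well, Tubb6 at 0.37 and 1.26 TPM against 3.73 and 233 and Tubb3 at 0.16 and 0.11 against 1.16 and 39.7. Of 13 EGFR ligands and epithelial repair genes, Tnfrsf12a, Erbb3 and Hbegf were higher in both TP libraries (23.1%) and Egf was lower, against 9.44% and 0.688% of all genes tested. In the cell cycle list 9 of 23 genes (39.1%) were higher in both, against 9.44% of all genes, among them the replication clamp Pcna at 2.66 and 5.95 TPM against 7.03 and 98.6 and the G1 cyclin Ccne1 at 0.06 and 0.29 against 0.59 and 10.9. None of the cell cycle genes kept the 1-unit distance.

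**Figure D4:**
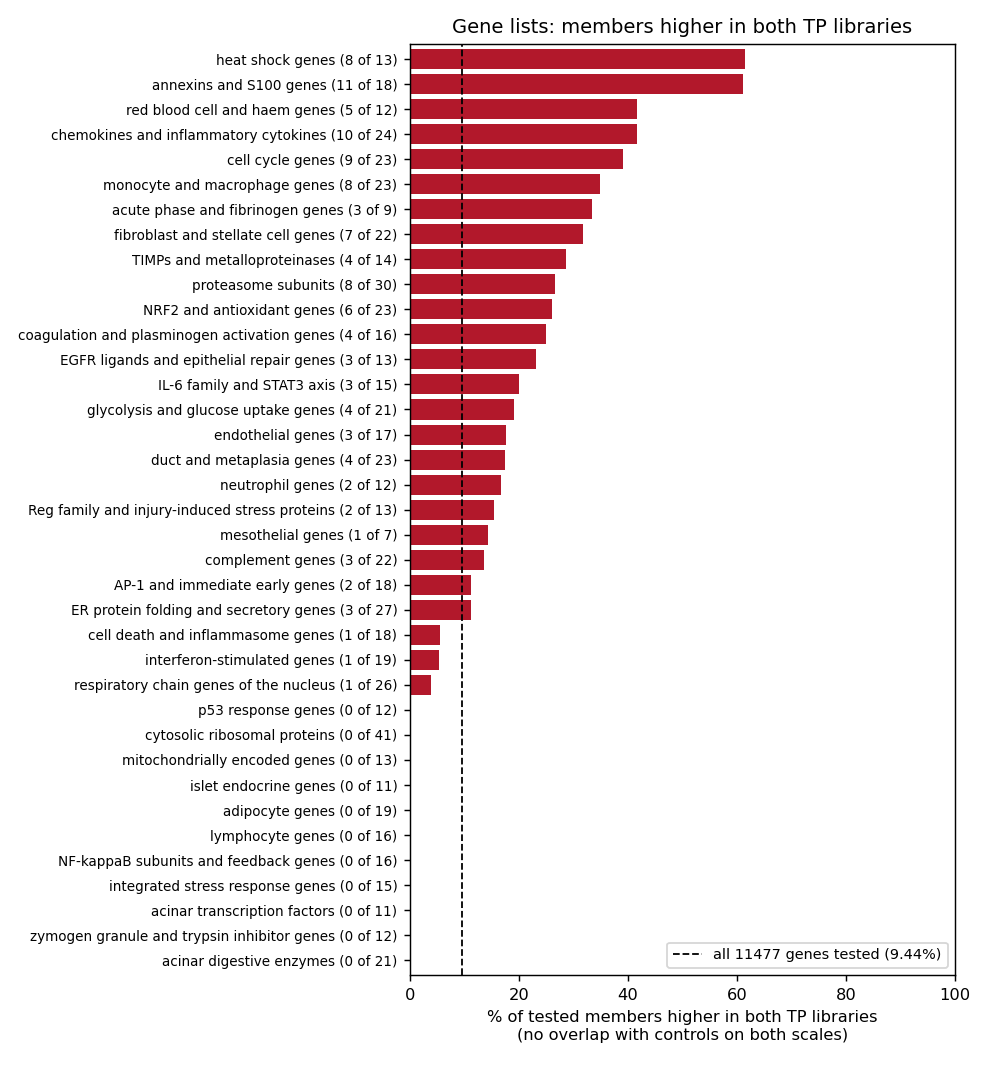
Percent of tested members of each gene list that were higher in both TP libraries than in both controls on both scales, with counts in parentheses and the share of all 11477 genes (9.44%) as a dashed line. Heat shock genes (61.5%) and annexins and S100 genes (61.1%) have the longest bars, and lists of acinar, islet, adipocyte and lymphocyte genes are at 0.

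Members of the Reg family, secreted lectin-like proteins that acinar cells make after injury, differed between the TP libraries. Reg3b, pancreatitis-associated protein, was at 200.4 and 247 TPM in the controls, 15906 in TP replicate 1 and 1902 in TP replicate 2. As deposited both TP libraries were above both controls, and Reg3b rose by a log2 fold change of 4.62 ± 0.79 (SE, n = 2 and 2) with an adjusted p of 2.62e-05 in limma. After scaling the values were 551 and 382 in the controls, 33216 in TP replicate 1 and 349.8 in TP replicate 2, so that the second TP library lay below both controls and the adjusted p was 0.710 in limma. Its promoter is printed above with those of the chemokines.

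The other Reg genes described here were also highest in TP replicate 1. Reg3g was at 0.13 and 0.37 TPM in the controls, 75.3 in TP replicate 1 and 1.40 in TP replicate 2, and Reg3a was at 631 and 684 against 6879 and 1025. Reg1a, the most abundant Reg gene in the controls of these 4, was at 5427 and 6028 TPM against 12749 and 2703. TP replicate 1, the library whose acinar share resembled the controls, thus held the highest level of each. In the list of Reg family and injury-induced stress proteins Lcn2 and Lbp were the only 2 of 13 higher in both TP libraries on both scales (15.4%). Nupr1 was lower. Over all genes tested the shares were 9.44% higher and 0.688% lower. The list's median distance was 1.23 log2 units in TP replicate 1 and -0.37 in TP replicate 2 after scaling.

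The lower genes included several relatives of digestive enzymes. Prss3, a trypsinogen, was at 27099 and 25354 TPM in the controls, 7186 in TP replicate 1 and 2254 in TP replicate 2, with a log2 fold change of -2.70 ± 0.66 (SE, n = 2 and 2) and an adjusted p of 0.0671 in limma as deposited. Both TP libraries lay below both controls, by 1.38 log2 units at the nearest, and the test's threshold was missed. Cpa4, a carboxypeptidase, was at 12.96 and 12.74 TPM against 1.98 and 0.79, and the colipase-like gene Clpsl2 at 13.3 and 18.4 against 2.82 and 0.90. Arg2, the mitochondrial arginase, was at 5.71 and 5.59 TPM against 1.14 and 1.10 as deposited, and after scaling at 15.7 and 8.64 against 2.38 and 0.20.

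Errfi1, an inducible inhibitor of EGF receptor signalling, was at 37.5 and 47.9 TPM in the controls and 6.97 and 15.7 in the TP libraries. Its level was higher in TP replicate 2 than in TP replicate 1, as deposited. The cytochrome P450 gene Cyp2d2 was at 23.9 and 21.7 TPM against 6.72 and 1.78. The alpha-globin row Hba-a3 was at 1.57 and 10.5 TPM against 0 and 0.26, although the more abundant Hba-a2 overlapped, at 105 and 514 TPM in the controls and 178 and 1808 in the TP libraries. The histone row H3f3c, was at 4.78 and 13.9 TPM against 0.06 and 2.04, with a gap of -1.06 as deposited and -3.96 after scaling.

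Most digestive enzyme genes did not share the pattern of Prss3. Of 21 tested, none was higher in both TP libraries and 2 were lower, against 9.44% and 0.688% of all genes tested. The lower genes were Prss3 and the trypsinogen Try5, which was at 90.1 and 80.7 TPM in controls against 31.5 and 8.92. Prss1, the main trypsinogen here, was at 209093 and 203002 TPM against 161728 and 44279. Ctrb1, chymotrypsinogen B, was at 172127 and 156284 TPM in the controls, 176265 in TP replicate 1 and 43276 in TP replicate 2, and Cpa1, carboxypeptidase A, at 26082 and 24732 against 29103 and 8402. For these enzymes TP replicate 1 was close to the controls and TP replicate 2 held the low value, which the list's medians also show, at 0.03 log2 units in TP replicate 1 and -5.34 in TP replicate 2 after scaling. Trypsinogen genes are near-identical copies, and reads could have been assigned to either of a pair, so the values of Prss3 and Try5 are uncertain.

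Acinar transcription factors and zymogen granule genes showed the same split, with no gene of 11 and none of 12 placed on 1 side by both TP libraries. Ptf1a, the factor that maintains acinar identity, was at 13.4 and 16.3 TPM in the controls, 23.1 in TP replicate 1 and 9.51 in TP replicate 2. Spink1, the trypsin inhibitor of the zymogen granule, was at 643 and 725 TPM against 741 and 176. Of 15 integrated stress response genes tested, Slc7a5 and Chac1 were lower in both TP libraries and none was higher. Over all genes tested 0.688% were lower and 9.44% higher. Nupr1, a stress-inducible chromatin protein, was at 298 and 273 TPM in the controls and 114 and 122 in the TP libraries, with a gap of -0.82 that kept it outside the 1-unit rule.

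**Figure D5:**
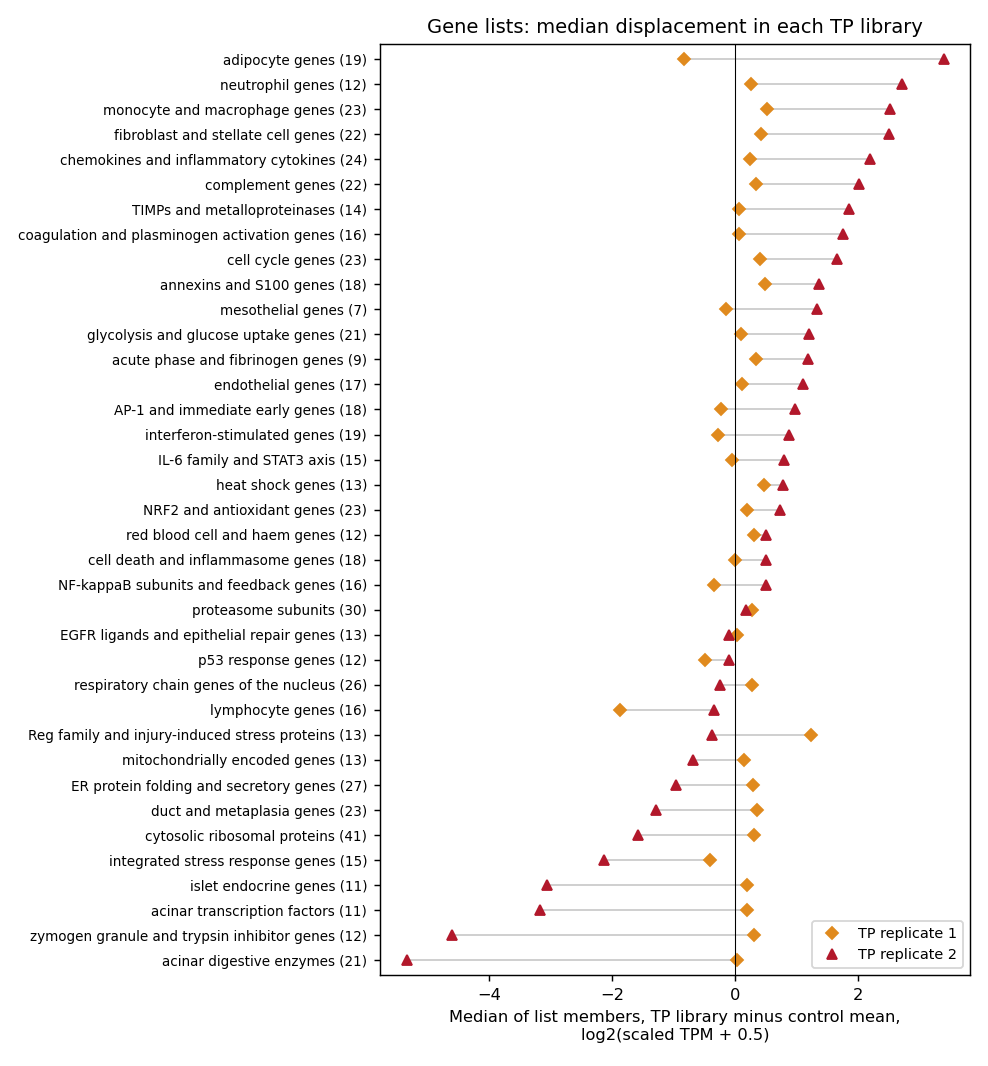
Median distance of each list's tested members from the control mean in TP replicate 1 (diamonds) and TP replicate 2 (triangles), in log2(scaled TPM + 0.5), with the number of members in parentheses. The diamonds lie within about 1 unit of 0 for most lists, with lymphocyte genes and the Reg family (1.23) beyond it, while the triangles run from -5.34 for digestive enzymes to 3.40 for adipocyte genes.

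Other lists had few or no members on the same side in both TP libraries. None of 16 NF-kappaB subunits and feedback genes, 12 p53 response genes, 13 mitochondrially encoded genes, 11 islet genes and 19 adipocyte genes was higher in both. Of the cytosolic ribosomal proteins 1 of 41 was lower and none higher, against 0.688% and 9.44% of all genes tested. Interferon-stimulated genes were higher in 1 of 19 cases (5.26%) and cell death and inflammasome genes in 1 of 18 (5.56%), against the same 9.44%. In lists of this size, none or 1 is not far from that share. Immediate early and AP-1 genes reached 2 of 18 (11.1%), with Fos at 0.04 and 0.14 TPM in the controls and 0.09 and 15.9 in the TP libraries. Il1b, the inflammatory cytokine, overlapped too, at 0.03 and 0.31 TPM against 0.24 and 26.7. None of 9 skeletal muscle genes in the table reached the filter.

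Far more genes were displaced in TP replicate 2 alone. By the same distance on both scales, 1642 genes were higher and 158 lower in TP replicate 2 but not in TP replicate 1. In TP replicate 1 but not in TP replicate 2, 90 were higher and 54 lower. Here alone means that the other TP library did not share the shift. The counts therefore include the 9 genes lower in TP replicate 1 and higher in TP replicate 2, and the 3 with the reverse pattern. Genes of fat tissue were among those with the greatest distance in TP replicate 2 alone. Ca3, a carbonic anhydrase of muscle and fat, was at 1.54 and 4.28 TPM in the controls, 0 in TP replicate 1 and 3475 in TP replicate 2. The adipokine Adipoq was at 0.74 and 1.42 TPM in the controls, 0.10 in TP replicate 1 and 741 in TP replicate 2. Both genes thus lay below both controls in TP replicate 1. Adipocyte genes as a list had median distances of -0.83 and 3.40 log2 units.

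The 62 genes were mostly scarce in TP replicate 1. The median level was 2.35 TPM there and 43.3 TPM in TP replicate 2, and 37 of the 62 were under 3 TPM in TP replicate 1, whereas 9 reached 10 TPM. As deposited TP replicate 1 was the lower of the TP libraries in 58 of them, but after scaling in only 36. The median difference of TP replicate 2 over TP replicate 1 after scaling was 0.56 log2 units for the 62 and 0.05 for all genes tested. At the edge of the rule, Nrm was just inside with a gap of 1.01 and Vcan just outside with 0.98.

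Short transcripts were common among the 62. Rows of under 300 bases made up 15 of them (24.2%), against 354 of all genes tested (3.08%), and 27 of the 62 were listed at 0 in both controls. AABR07018115.1, a row of 110 bases, was listed at 0 in both controls and at 41.5 and 48.5 TPM after the crush. A row of the small nucleolar RNA SNORA62 was at 0 in both controls and 5.6 and 59.7 TPM after the crush, and a U1 small nuclear RNA row at 0 against 18.4 and 6.21. The row of the microRNA hairpin Mir675, of 84 bases, was at 1.26 and 1.62 TPM against 8.29 and 79.9. In rows this short a few reads give a high TPM, and repeated small RNA genes share reads, so these values are uncertain.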

How the data were processed

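Pancreas RNA was sequenced in 6 libraries (3 groups of 2), and the authors deposited 1 table of TPM values for 34001 genes, of which 32883 carry rat Ensembl IDs and 1118 carry MSTRG IDs. The submitters' processing notes name the builds GRCm38 and mm10, which are mouse builds; for the aligner, the counting tool and the rat build the entry is: not given in the sources used here. Columns were matched to samples by their names, of which the "20" in the TP names is not explained by a label, and 0 value columns belonged to no sample of the series. TPM keeps no record of depth, so no counting error can be given, and a 0 may be a failed estimate.

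The filter asked for a mean of 1 TPM across all 6 libraries. Values were tested as log2(TPM + 0.5) (a scale on which low genes change by less than their true fold) both as deposited and after median-of-ratios scaling over the 13243 genes above 0 in all 6 libraries. limma 3.58.1 in R 4.3.3 fitted the 3 groups with a trended prior and 3 residual degrees of freedom. The p-values were adjusted by Benjamini-Hochberg at 0.05. After scaling the prior added 2.04 degrees of freedom, so that each gene's own spread counted. As deposited the p-values were those of a normal distribution, so that the spread came from the trend over genes and not from the single gene. The script was tested on simulated data. Named genes were the genes called, up to 20 per direction with the greatest distance between groups, up to 8 per TP library displaced alone, up to 4 members of each of 38 lists past the distance and its 2 most abundant tested members. The other genes named, such as Lgals3, Clec10a, Reg1a, Cxcl1, Gclc and Il1b, were chosen after their values were seen. The comparison, its genes and the lists were chosen with earlier results of these data known. Alternatives covered the pseudocount, the filter, the scaling, the distance, the libraries left out and a replicate block. A result is not reported here.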

Additional observations from a re-analysis of the deposited data

How the results depend on the processing

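The 6 genes called higher by limma as deposited became 14 with a pseudocount of 0.1, 2 after rescaling without the digestive enzymes, 0 without a filter (160 at an unadjusted p under 0.05) and 0 with the 4 libraries alone (85 at an unadjusted p under 0.05). With 1 library left out the count ran from 0 to 10502: 1 without control replicate 1, 0 without control replicate 2 (76 at an unadjusted p under 0.05), 10502 without TP replicate 1 and 20 without TP replicate 2, where the lone TP library is assumed to vary like the others. Lower calls as deposited, 0 in limma, ran from 0 to 204 when a library was left out, 204 being without TP replicate 1. After scaling, the higher calls ran from 0 to 1536 (17 without TP replicate 2) and the lower calls from 0 to 1225, both highest without TP replicate 1.

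The 62 genes higher in both TP libraries became 124 with a pseudocount of 0.1, 35 with 1, 98 after rescaling without the digestive enzymes, 113 on the deposited scale alone, 101 on the scaled values alone, 1083 without a distance and 12 with a distance of 2. Leaving out 1 library gave 95 to 1771 (95 without control replicate 1, 264 without control replicate 2, 1771 without TP replicate 1 and 150 without TP replicate 2), since fewer libraries have to be separated. Asking for 5 TPM or more in both TP libraries, an alternative chosen after seeing the data, left 21. The 12 lower genes became 19 without a filter, 6 at a mean of 5 TPM, 40 after rescaling without the digestive enzymes, 46 on the scaled values alone, 79 without a distance, 3 with a distance of 2, 31 to 170 with 1 library left out (48 without control replicate 1, 31 without control replicate 2, 170 without TP replicate 1 and 66 without TP replicate 2) and 6 at 5 TPM or more, the last added after seeing the data. Other causes of these shifts were not tested.

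With the replicate number as a block, limma called 9 genes higher and 1 lower, Prss3 (adjusted p 0.0143), as deposited and 0 after scaling (929 at an unadjusted p under 0.05). No label says that the numbers pair the libraries. The replicate differences of the control and TP groups correlated across genes at 0.28 as deposited and 0.40 after scaling. With the exosome group the correlations were lower, at 0.08 and 0.10 for the control group and 0.14 and 0.15 for the TP group. Of 483 alternative values for the fold changes of 35 genes, 406 kept direction and side of the threshold and none reversed. A further 37 passed the threshold only then, and 40 passed it no longer. Most of the 35 were picked because their TP libraries stood apart from the controls, so a reversal was unlikely from the start. Only the 6 genes called could lose their call, so the 40 all fall on them. The 406 are mostly genes that were not called and stayed so.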

Other observations

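Of the genes tested, 3 stood higher in TP replicate 1 and lower in TP replicate 2 than both controls by at least 1 log2 unit on both scales, and 9 stood lower in TP replicate 1 and higher in TP replicate 2. Clu, clusterin, a secreted chaperone, was at 41.7 and 82.7 TPM in the controls, 290 in TP replicate 1 and 509 in TP replicate 2, and after scaling at 115 and 128 against 605 and 93.7, so that TP replicate 2 then lay below both controls. The protease inhibitor A2m was at 0 and 0.26 TPM in the controls, 7.03 in TP replicate 1 and 0.58 in TP replicate 2, and after scaling at 0 and 0.40 against 14.7 and 0.11, so that TP replicate 2 then overlapped with the controls.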
